A study of Mus musculus with 7 samples.

Results

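Pericytes are contractile support cells that wrap the endothelium of small vessels, and in skin and muscle they lie among fibroblasts, smooth muscle cells and myogenic precursors. No single gene marks them: the usual markers are a cell surface proteoglycan (Cspg4, also known as NG2), receptors for endothelial signals (Pdgfrb, Notch3), surface proteins (Mcam, Anpep), a signalling regulator (Rgs5), a potassium channel (Kcnj8 with Abcc9) and ligands of the endothelial Tie2 receptor (Angpt1, Angpt2). Most of these genes are also read in fibroblasts or smooth muscle, so pericytes are recognised by the combination. The 10 genes were found by the gene name that the array files give to each probe, which selected 11 probes of 55681 (10 of 34779 named genes). Cspg4 also named a lineage in the study, and the main question was how these genes stood in Cspg4+ cells and in the Cspg4- cells of the same mouse line.

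Transcript levels of 7 cell populations from mice were read on Agilent 60-mer arrays in 1 colour, 1 array for each. The Cspg4+, Cspg4- Sdc4+ and Cspg4- Sdc4- cells came from the line B6,FVB-Tg(Cspg4-cre)1Akik/J, in which a Cspg4 transgene drives Cre. The label may therefore follow the history of Cre activity and not the Cspg4 transcript, which could not be checked here. Myf5SOR+ Sdc4+ cells came from mice with Cre at the Myf5 locus, a muscle lineage gene, and B195AP+ Sdc4- cells from the strain B195AP-Cre, for which no promoter is named. CD1 Sdc4+ and CD1 Sdc4- cells came from outbred Crl:CD1(ICR) mice with no Cre named. Sdc4 is syndecan-4, a surface proteoglycan of satellite cells, and Cspg4+ cells carried no Sdc4 label. The labels give 8 to 10 animals a population, without saying whether these were pooled, and an RNA input of between 10 and 200 ng. The reporter allele and the ages of the mice were not given in the sources used here.

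Levels below are log2 processed intensity of a probe relative to the 75th percentile of its array, so that 0 is that percentile. They can be compared between arrays for 1 probe, but not between probes. The scanner software marked a spot as well above background or not, and this held for 45.9% to 50.8% of spots on 6 arrays and for 57.2% on the Cspg4+ array. Probes spotted many times gave a median SD between spots of 0.063 to 0.0823 on 6 arrays and of 0.152 on the B195AP+ array, a part of which carried streaks of low signal. With 1 array per population no value had an error between arrays. Each member probe had 1 spot, so its spot SD was taken from the probes spotted many times, at a like level on that array. A difference between 2 arrays is called beyond the spot spread where it exceeded 2 combined spot SDs at that level. The scanner software also gave each value an error, 10% for Pdgfrb and Anpep on every array. That error was not used in the call, so some differences beyond the spot spread may lie within it. In such bulk samples, fewer cells of a type and less RNA per cell cannot be told apart. All arrays shared 1 slide, with the Sdc4+ arrays in the first row and the others in the second.

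Not all of the markers were read. Of the 10 genes, 7 were well above background on all 7 arrays (Cspg4, Pdgfrb, Mcam, Anpep, Notch3, Angpt1 and Angpt2). Abcc9 was so on 5 arrays and Rgs5 on 1, and Kcnj8 on 0 of 7. Rgs5 and Kcnj8, which are among the more selective pericyte markers, were not well above background on the Cspg4+ array. The markers of dermal fibroblasts were well above background on all 7 arrays for 10 of 11 genes, Pdgfra and the collagens among them.

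**Figure D1:**
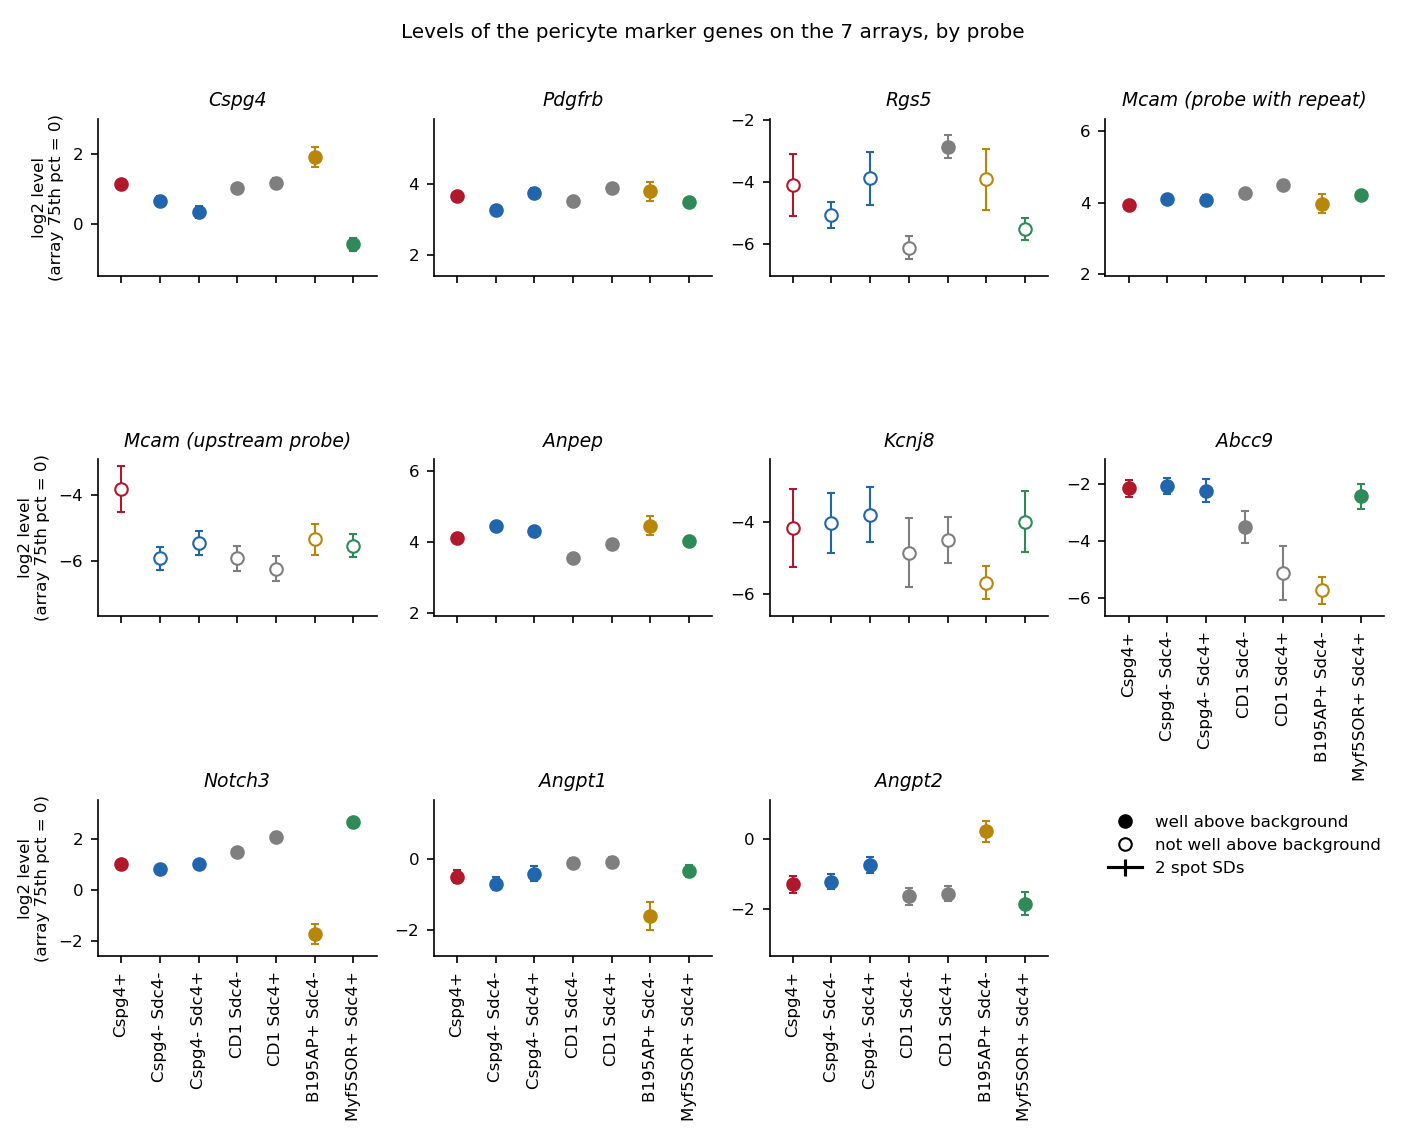
Log2 level of each of the 11 probes (array 75th percentile at 0) on the 7 arrays, 1 point per population, with bars of 2 spot SDs; filled points were well above background and open points were not. Cspg4 was lowest in Myf5SOR+ Sdc4+ cells at -0.58 and highest in B195AP+ Sdc4- cells at 1.90, Kcnj8 was open on all arrays, and the Mcam probes parted.

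Cspg4, which encodes the NG2 chondroitin sulfate proteoglycan, was present in all 7 populations. Its probe lies on the + strand at chr9:56746627-56746686 (mm9) and starts at base 6999 of transcript NM_139001. It is shown because every Cspg4 value below rests on this 60-base oligonucleotide.
Cspg4 probe: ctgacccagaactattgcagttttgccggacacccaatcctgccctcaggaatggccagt

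The Cspg4 level was 1.14 on the Cspg4+ array, 0.65 on the Cspg4- Sdc4- array and 0.34 on the Cspg4- Sdc4+ array. It was 1.02 and 1.18 in CD1 Sdc4- and CD1 Sdc4+ cells, 1.90 in B195AP+ Sdc4- cells and -0.58 in Myf5SOR+ Sdc4+ cells. Cells named Cspg4+ thus read above both Cspg4- arrays, level with CD1 cells and below B195AP+ cells. In this order CD1 Sdc4+, Cspg4+ and CD1 Sdc4- cells did not differ beyond the spot spread, whereas each other step did. From the lowest to the highest population Cspg4 spanned 2.48 log2 units, or 5.58-fold, a wider range than in 95.33% of the 16590 genes above background on all arrays.

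Cspg4+ cells were set against the Cspg4- arrays of the same line. The difference for Cspg4 was 0.65 (1.57-fold, SE 0.773, 95% interval -1.27 to 2.57, limma adjusted p = 1). Against Cspg4- Sdc4+ cells it was 0.80 (1.74-fold) and against Cspg4- Sdc4- cells, which lay in the same slide row, 0.49 (1.41-fold), both beyond the spot spread. Of the genes above background on all arrays, 3.56% had a difference at least as high. When each array was centred on its median instead, the difference was -0.11, while the median of all genes moved from 0.06 to -0.70, so that relative to all genes Cspg4 stayed on the higher side. The fit lent the single Cspg4+ array the spread of the other groups, whose arrays differed in line or Sdc4 label.

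Over all 10 markers the comparison gave no common direction. Of the 8 that passed the background filter, 4 were higher and 4 lower in Cspg4+ cells, and 0 passed limma at an adjusted p of 0.05, where 0% of 19700 genes were called (553 genes at an unadjusted p under 0.05, 0 of them members). The Cspg4+ array lay outside the range of both Cspg4- arrays for 4 of the 8, higher for Cspg4 and lower for Mcam, Anpep and Angpt2. For all genes tested that share was 64.2%, so the count was no higher than the background. The median difference of the 8 was 0.02 against 0.06 over all genes, and the median size was 0.15 against 0.21. The sizes went from -0.30 for Angpt2 to 0.65 for Cspg4, and the 95% interval reached beyond 1 log2 unit for 7 of the 8. Without the Cspg4- Sdc4- array Pdgfrb differed by -0.11, Notch3 by -0.01, Angpt1 by -0.08 and Abcc9 by 0.08, each opposite to its sign with both arrays.

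**Figure D2:**
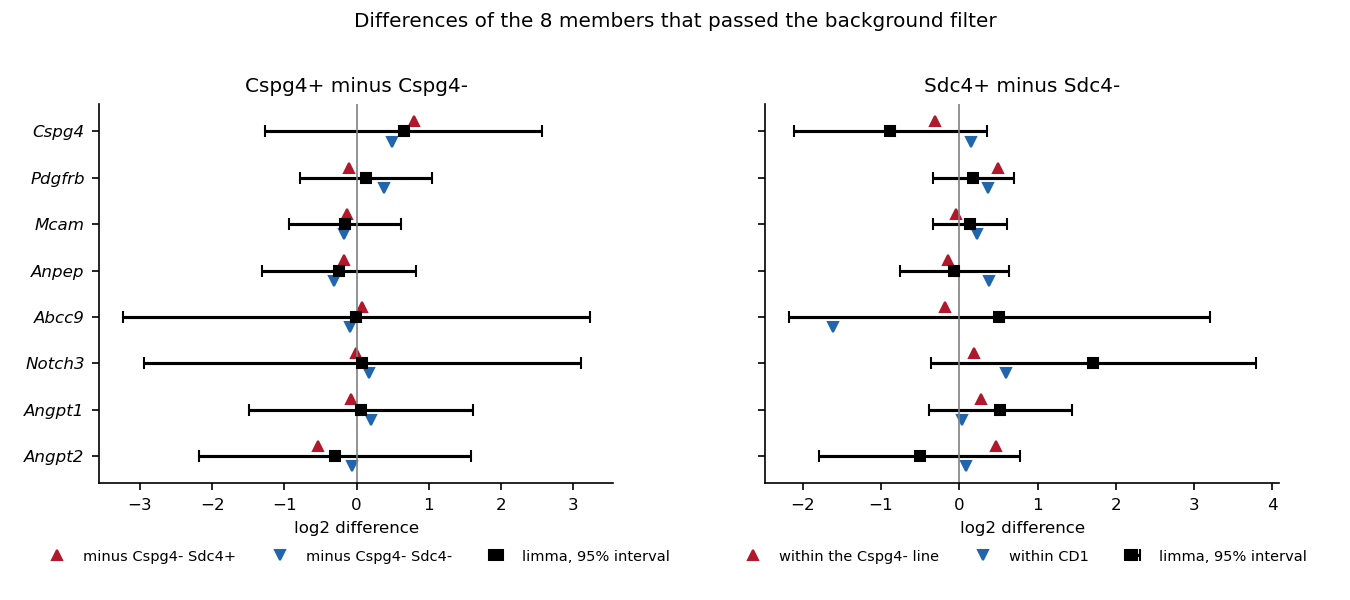
Log2 difference of the 8 members that passed the background filter, for Cspg4+ minus Cspg4- cells (left) and Sdc4+ minus Sdc4- cells (right): squares with 95% intervals are limma estimates, and triangles are differences between single arrays. Every interval includes 0, and at left Cspg4 has the highest estimate at 0.65.

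The receptors come next. Pdgfrb, the receptor for the PDGF-BB that endothelium releases to recruit pericytes, read 3.48, 3.75 and 3.89 on the Myf5SOR+, Cspg4- and CD1 Sdc4+ arrays and 3.79, 3.27 and 3.52 on the B195AP+, Cspg4- and CD1 Sdc4- arrays. It was 3.64 on the Cspg4+ array. These values lay within 0.62 log2 units (1.54-fold), and neighbours in the order differed beyond the spot spread only between Myf5SOR+ Sdc4+ and Cspg4- Sdc4- cells. The B195AP+ spot of Pdgfrb lay in the streaked part of that array. Cspg4+ and Cspg4- cells differed by 0.13 (SE 0.370, 95% interval -0.79 to 1.05, limma adjusted p = 1). Of the 6 PDGF ligands and receptor partners, Pdgfb was well above background on 4 arrays and not on every array of the Cspg4 line. The direction of the 6 is therefore not counted. Pdgfra, the sister receptor common in fibroblasts, read 4.98 in Cspg4+ cells, 4.63 in Cspg4- Sdc4+ cells and 4.96 in Cspg4- Sdc4- cells.

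Notch3, the Notch receptor of mural cells, varied most among the members. It was 2.65 in Myf5SOR+ Sdc4+ cells, 2.08 in CD1 Sdc4+ cells and 1.49 in CD1 Sdc4- cells. It was 1.01, 1.00 and 0.83 in Cspg4- Sdc4+, Cspg4+ and Cspg4- Sdc4- cells, and -1.72 in B195AP+ Sdc4- cells. The 3 arrays of the Cspg4 line stood together within the spot spread, and B195AP+ cells stood far below all others. The range of 4.36 log2 units (20.6-fold) was wider than in 99.57% of the genes above background on all arrays. The B195AP+ spot of Notch3 lay in the streaked part of that array, where 7.76% of bright spots were over 4-fold low against 0.636% outside. Of 11 bright spots around it, within 3 rows and 3 columns, 1 was over 4-fold low (median deviation -0.10 from the other arrays). Along its own row 1 of 3 bright spots was so (median -1.14), and along its own column 1 of 3 (median 0.38). The part of the streaks in this value was not tested further. Without that array the levels ran from 0.83 to 2.65.

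Notch3 differed by 0.08 between Cspg4+ and Cspg4- cells (SE 1.22, 95% interval -2.94 to 3.11, limma adjusted p = 1). Among 14 ligands, other receptors and targets of the Notch pathway, 5 were well above background on all arrays and 4 on none (Dll4, Hes5, Hey2 and Nrarp). Of the 9 tested, Heyl, Jag2 and Hes1 were not well above background on every array of the Cspg4 line. The direction of the 9 is therefore not counted. Jag1, a ligand for Notch3, read -1.29 in Cspg4+ cells and 0.67 and -1.71 in Cspg4- Sdc4+ and Cspg4- Sdc4- cells, so that the Cspg4+ array lay between them. Rbpj, the transcription factor through which Notch receptors act, read 3.58 in Cspg4+ cells and 2.95 and 3.66 on those arrays.

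**Figure D3:**
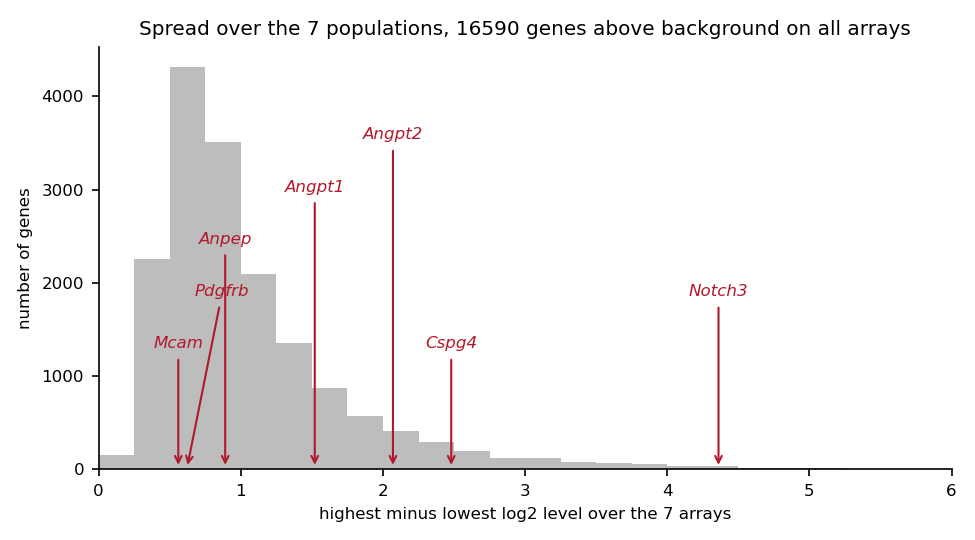
Histogram of the highest minus the lowest log2 level over the 7 arrays for 16590 genes above background on all of them; arrows mark the 7 members among them. Anpep (0.89) lies near the median gene (0.85), Pdgfrb (0.62) just above and Mcam (0.56) below the lower quartile (0.60), and Cspg4 (2.48) and Notch3 (4.36, 1 spot of which was in the streaked region) lie in the upper tail.

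Mcam and Anpep are surface proteins of pericytes. Mcam, also called CD146, is an adhesion molecule shared with endothelium, and it was read by a pair of probes that parted. The probe that represented the gene lies at chr9:43950664-43950723 (mm9) and starts at base 2746 of the transcript. It read 3.94 in Cspg4+ cells and 4.08 and 4.12 in Cspg4- Sdc4+ and Cspg4- Sdc4- cells, and over all arrays its range was 0.56. The other probe, at chr9:43949385-43949444, starts upstream at base 1858. It was not well above background on any of the 7 arrays, with levels from -6.22 in CD1 Sdc4+ cells to -3.81 in Cspg4+ cells.

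The brighter Mcam probe holds a run of 20 bases of alternating G and T. The run is shown with the other Mcam probe, which has none, because the values of the gene depend on which is used.
Mcam repeat, within the brighter probe: gtgtgtgtgtgtgtgtgtgt
Mcam probe, upstream: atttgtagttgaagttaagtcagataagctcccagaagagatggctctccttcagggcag

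On the whole array 76 probes carried a run of GT, TG, AC or CA repeats of at least this length (52 of them GT or TG). All 76 were well above background on all 7 arrays (100%), against 39.8% of the 55605 other probes. Their median level was 4.91, with the middle 50% between 3.94 and 5.73, against -4.01 for the other probes. The brighter Mcam probe, with a median of 4.12, lay inside that band. No other member probe held such a run. The part of the repeat in the signal of the brighter probe was not tested, and all other Mcam values given here are from that probe. With Mcam left out the median difference of the members between Cspg4+ and Cspg4- cells was 0.06, a setting added after this was seen.

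**Figure D4:**
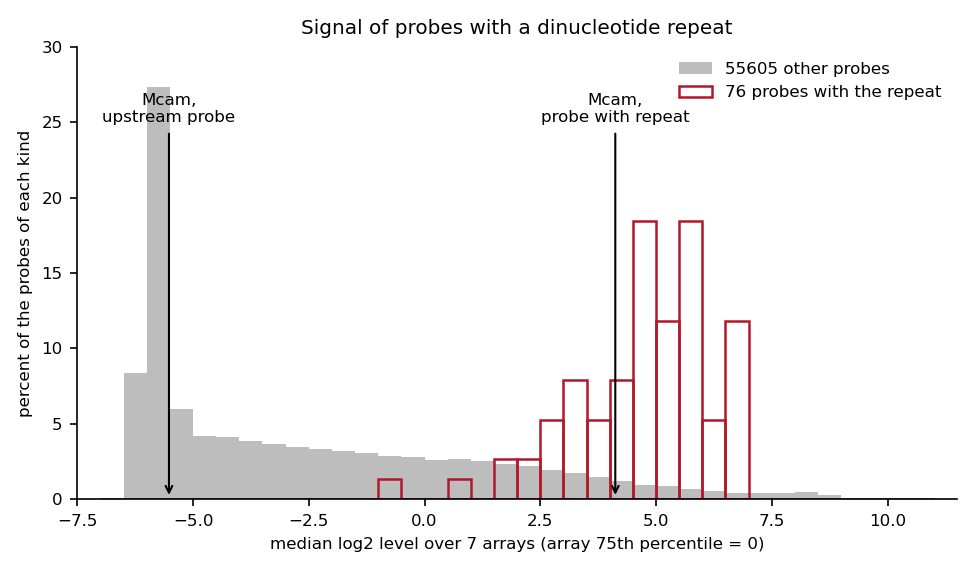
Percent of probes by median log2 level over the 7 arrays (array 75th percentile at 0), for 76 probes with a GT or AC repeat of at least 20 bases (red outline) and 55605 other probes (grey); arrows mark the Mcam probes. The repeat probes have a median of 4.91 and the others of -4.01, and the brighter Mcam probe (4.12) lies among the repeat probes.

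Anpep, the aminopeptidase CD13 of pericytes and of fibroblasts and myeloid cells, read 4.13 in Cspg4+ cells and 4.30 and 4.45 in Cspg4- Sdc4+ and Cspg4- Sdc4- cells. Its difference of -0.24 had an SE of 0.429 (95% interval -1.31 to 0.82, limma adjusted p = 1), although both single differences, -0.17 and -0.32, exceeded the spot spread. In CD1 cells it was lower, at 3.95 in Sdc4+ and 3.57 in Sdc4- cells. Myf5SOR+ Sdc4+ cells read 4.04 and B195AP+ Sdc4- cells 4.46, the latter from a spot in the streaked part of that array.

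Rgs5, which shortens signals of G protein coupled receptors in mural cells, was well above background in CD1 Sdc4+ cells only, at -2.86. Its values elsewhere, from -6.10 in CD1 Sdc4- cells to -3.88 in Cspg4- Sdc4+ cells, have no order among them. In CD1 mice Rgs5 was at least 2.11-fold higher in Sdc4+ than in Sdc4- cells, the lower side being set at the dimmest signal well above background on that array. Of 6 other genes of its subfamily, 3 were well above background on all arrays (Rgs2, Rgs3 and Rgs16) and 2 on none. Rgs2, a regulator common in smooth muscle, read 7.15 in Cspg4+ cells, 6.69 in Cspg4- Sdc4+ cells and 7.05 in Cspg4- Sdc4- cells.

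Kcnj8 and Abcc9 encode the pore and the regulatory subunit of the ATP-sensitive potassium channel of pericytes, and they are neighbours on chromosome 6. They were not read alike. Kcnj8 was not well above background on any array, with levels between -5.70 and -3.79. Abcc9 read -2.06 in Cspg4- Sdc4- cells, -2.15 in Cspg4+ cells, -2.23 in Cspg4- Sdc4+ cells and -2.43 in Myf5SOR+ Sdc4+ cells. These 4 did not differ beyond the spot spread. CD1 Sdc4- cells read -3.51, and the CD1 Sdc4+ and B195AP+ Sdc4- arrays (-5.12 and -5.74) were not well above background.

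Abcc9 was therefore high in the Cspg4 line and in Myf5SOR+ cells and low in CD1 and B195AP+ cells. It was at least 4.68-fold higher in Cspg4- Sdc4+ than in CD1 Sdc4+ cells, and at least 4.09-fold higher in Myf5SOR+ Sdc4+ than in CD1 Sdc4+ cells. In the Sdc4- fraction it was 2.74-fold higher in Cspg4- than in CD1 cells, and in CD1 Sdc4- cells at least 2.04-fold higher than in B195AP+ Sdc4- cells. Between Cspg4+ and Cspg4- cells it differed by -0.01 (SE 1.30, 95% interval -3.24 to 3.23, limma adjusted p = 1). The Abcc9 spots lay outside the streaked region, and those of Kcnj8 inside it. The related channel genes Kcnj11 and Abcc8 were well above background on 1 and on 7 arrays. The array that read Kcnj11 was that of Cspg4+ cells (-3.01), which also had the largest share of spots well above background.

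The upstream sequences of Kcnj8, Abcc9 and Cspg4 are shown because the channel neighbours parted and Cspg4 varied across the lines. They are the 250 bases before the annotated start of each gene from RefSeq (GRCm38.p6), in the direction of transcription, and 7 of the 10 members had such an entry. Capitals mark the motifs CANNTG (the E-box of basic helix-loop-helix factors) and TGGGAA (the core bound by RBPJ), searched on both strands. Of 32851 promoters, 66.2% held CANNTG and 21.6% TGGGAA in a window of this length.
Cspg4, chr9:56864854-56865103, + strand: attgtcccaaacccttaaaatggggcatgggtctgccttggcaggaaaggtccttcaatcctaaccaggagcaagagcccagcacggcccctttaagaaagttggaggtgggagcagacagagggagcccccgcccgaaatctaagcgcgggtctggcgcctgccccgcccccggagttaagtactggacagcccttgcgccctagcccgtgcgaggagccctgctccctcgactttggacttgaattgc
Abcc9, chr6:142702275-142702524, - strand: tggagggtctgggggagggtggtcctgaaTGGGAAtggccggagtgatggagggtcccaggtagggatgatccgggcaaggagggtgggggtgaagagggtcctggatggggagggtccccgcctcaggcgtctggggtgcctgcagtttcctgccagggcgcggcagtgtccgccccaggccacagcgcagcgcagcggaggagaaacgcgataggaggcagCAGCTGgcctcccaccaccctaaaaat
Kcnj8, chr6:142571615-142571864, - strand: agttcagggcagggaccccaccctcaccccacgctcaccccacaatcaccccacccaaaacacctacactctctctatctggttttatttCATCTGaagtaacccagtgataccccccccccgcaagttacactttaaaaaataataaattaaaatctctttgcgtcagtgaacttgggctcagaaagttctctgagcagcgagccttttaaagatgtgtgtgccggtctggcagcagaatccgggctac

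Abcc9 held 1 CANNTG and 1 TGGGAA, Kcnj8 held 1 CANNTG, and Cspg4 held neither. The GC box GGGCGG, present in 32.7% of promoters, occurred 2 times upstream of Cspg4, 1 time upstream of Abcc9 and 0 times upstream of Kcnj8. The G and C share was 60.4% for Cspg4, 66.8% for Abcc9 and 49.2% for Kcnj8. These matches describe letters in a window and were not tied to the levels.

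Angpt1 and Angpt2 encode the angiopoietins, of which the first is the pericyte ligand that activates Tie2 and the second is best known from endothelium and can oppose it. Angpt1 read -0.08 and -0.11 in CD1 Sdc4+ and CD1 Sdc4- cells, -0.34 in Myf5SOR+ Sdc4+ cells, -0.42 in Cspg4- Sdc4+ cells, -0.50 in Cspg4+ cells and -0.70 in Cspg4- Sdc4- cells. It was lowest in B195AP+ Sdc4- cells at -1.60. Angpt2 ran the other way, at 0.22 in B195AP+ Sdc4- cells and -0.75 in Cspg4- Sdc4+ cells. The other 5 arrays lay between -1.85 and -1.22, with Myf5SOR+ Sdc4+ cells the lowest and Cspg4+ cells at -1.29.

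B195AP+ cells thus had the lowest Angpt1 and the highest Angpt2 of the 7 populations, both beyond the spot spread from the next array and both from spots outside the streaked region. Over the 7 arrays Angpt1 and Angpt2 correlated with r = -0.89, Notch3 and Angpt1 with 0.92, and Notch3 and Angpt2 with -0.95. Without B195AP+ the values were -0.49, 0.59 and -0.79, so that the B195AP+ array carried much of each. Cspg4+ and Cspg4- cells differed by 0.06 for Angpt1 (95% interval -1.49 to 1.61) and by -0.30 for Angpt2 (95% interval -2.19 to 1.59; limma adjusted p = 1 for both). The receptors Tek and Tie1 were not well above background on any array. Of the 5 genes of the angiopoietin and Tie list that were tested, 1 was higher and 4 lower in Cspg4+ cells and 0 passed the test. Vegfc, a growth factor for lymphatic vessels, read 0.69 in Cspg4+ cells and 1.70 and 1.44 in Cspg4- Sdc4+ and Cspg4- Sdc4- cells.

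The comparison of 3 Sdc4+ with 3 Sdc4- arrays asked which markers went with Sdc4. The mean of Cspg4 was 0.31 ± 0.88 in Sdc4+ and 1.19 ± 0.64 in Sdc4- cells (SD over 3 arrays each, n = 3), which differ by -0.88 (SE 0.516, 95% interval -2.11 to 0.36, limma adjusted p = 0.658). Without the Myf5SOR+ array it was -0.43 and without the B195AP+ array -0.52. Within a line Cspg4 differed by -0.31 in Cspg4- cells and by 0.15 in CD1 cells, the latter within the spot spread. Notch3 averaged 1.91 ± 0.83 against 0.20 ± 1.69 (SD, n = 3 each), a difference of 1.71 (SE 0.865, 95% interval -0.36 to 3.79, limma adjusted p = 0.601). Without the streaked spots it was 0.76, and within a line 0.19 in Cspg4- cells (within the spot spread) and 0.60 in CD1 cells.

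Of the 8 members tested, 5 were higher and 3 lower in Sdc4+ cells, and 0 passed limma, where 0% of genes were called (1805 genes at an unadjusted p under 0.05). The 3 arrays of each side overlapped for all 8 members tested, while 16.4% of 19388 genes had no overlap. The median difference was 0.16 against -0.03 over all genes. Pdgfrb was higher in the Sdc4+ cells of both lines, by 0.49 in Cspg4- and 0.37 in CD1 cells, both beyond the spot spread, and by 0.18 over the 3 arrays of each side (SE 0.217, 95% interval -0.34 to 0.70, limma adjusted p = 0.817). The 95% intervals, whose spread was taken between arrays of unlike lines, left room for differences of over 1 log2 unit in 5 of the 8 members. The Sdc4 label and the slide row cannot be told apart in this comparison. The summed level of 12 genes of differentiated muscle, such as myosin heavy chains and troponins, was higher on the Sdc4- arrays. In multiples of the 75th percentile of each array, it was 0.846, 0.967 and 1.08 on the Sdc4+ arrays. It was 4.61, 11.7 and 39.6 on the B195AP+, Cspg4- and CD1 Sdc4- arrays. The sum is weighted by the brightest probes, such as Myh3, at 3.79 in CD1 Sdc4- cells, and Myh8, at 2.21 in Cspg4- Sdc4- cells. It therefore does not give a trend shared by the 12 genes. Of the 10 tested, 0 passed limma. Ttn and Actn2 were well above background on 3 and 4 arrays and read between -6.43 and -5.3 on the Sdc4+ arrays. They passed the background filter only through the other arrays, so the direction of the 10 is not counted. The part of the muscle genes in the differences of the pericyte markers was not tested.

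Cspg4- cells and CD1 cells were each read in both Sdc4 fractions, on 4 separate arrays, so they could be set side by side in each fraction. Since CD1 cells carried no Cspg4 label, the mouse line and the choice of Cspg4- cells changed together and cannot be told apart. All 8 members tested differed in the same direction in both fractions, 3 higher and 5 lower in Cspg4- cells, where 65.1% of 19695 genes did so. This count was made after the values were seen. Cspg4 itself was lower in Cspg4- than in CD1 cells, with log2 differences of -0.83 in the Sdc4+ and -0.37 in the Sdc4- fraction. Notch3 was also lower (-1.07 and -0.66), as were Angpt1 (-0.34 and -0.59) and the Mcam probe with the repeat (-0.42 and -0.15). Abcc9 was higher, as given above, as were Anpep (0.35 and 0.88) and Angpt2 (0.81 and 0.42). Each of these differences exceeded the spot spread, and for Pdgfrb (-0.14 and -0.25) only the second did. There was no replicate of any of the 4 populations.

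Other mural and vessel genes were also read only in part. Of 20 further pericyte and mural cell genes, 13 were well above background on all arrays and 3 on none (Vtn, P2ry14 and Aspn). Of the 16 tested, Tbx2 and Rgs4 were well above background on 3 and 4 arrays and not on every array of the Cspg4 line. The direction of the 16 is therefore not counted. Steap4, a metalloreductase, read 2.17 in Cspg4+ cells and 1.85 and 1.82 in Cspg4- Sdc4+ and Cspg4- Sdc4- cells. Gja4, the connexin 37 of vessel walls, read -2.63 against -3.10 and -3.21. Tbx18 read -0.03 against 0.64 and -0.17, and Rgs4 read -5.94 against -3.07 and -4.36. Rgs4 was well above background on 4 arrays, and its Cspg4+ value lay below the dimmest such signal on that array (-3.79). Atp13a5, chosen here after its values were seen, was well above background on the Cspg4+ array only (-2.92 against -5.47 and -5.90). That array had the largest share of spots well above background (57.2%). The keratinocyte gene Epcam and the adipocyte gene Adipoq were likewise well above background on 1 array and highest in Cspg4+ cells (-2.14 and -2.82).

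Of 12 contractile smooth muscle genes, 6 were well above background on 0 of 7 arrays (Myh11, Cnn1, Myocd, Lmod1, Actg2 and Pln) and 4 on all (Acta2, Tagln, Smtn and Mylk), with Des on 5 and Synpo2 on 3. Of the endothelial markers Pecam1, Kdr, Flt1, Plvap and Egfl7 were well above background on all arrays, Cdh5 on 1 and Tie1, Tek, Emcn and Cldn5 on 0. Of 7 endothelial genes tested, Esam was well above background on 3 arrays only, those of the Cspg4 line. It passed the background filter through them, so the direction of the 7 is not counted. Pecam1, the endothelial adhesion molecule, read -1.37 in Cspg4+ cells and -2.30 and -2.07 in Cspg4- Sdc4+ and Cspg4- Sdc4- cells. The summed level of the 12 endothelial markers, in multiples of the 75th percentile of each array, was 42.0 in Cspg4+ cells and 31.3 and 39.6 in those cells. It was higher than in Cspg4+ cells in Myf5SOR+ Sdc4+ cells (56.4) and CD1 Sdc4- cells (43). CD1 Sdc4+ and B195AP+ Sdc4- cells were lower (36 and 36.2). The sum is weighted by the brightest probes, such as Flt1, at 4.68 in Myf5SOR+ Sdc4+ cells. The B195AP+ spots of Flt1, Egfl7 and Plvap lay in the streaked region. Of 6 mast cell genes Tpsb2, a tryptase, was well above background on all arrays. It read -2.37 in Cspg4+ cells and 0.05 and -0.76 in Cspg4- Sdc4+ and Cspg4- Sdc4- cells. Elsewhere it ran from -2.1 in B195AP+ Sdc4- cells to -0.56 in CD1 Sdc4- cells. Cma1, Mcpt4 and Cpa3 were so on 3 arrays only, which is how they passed the background filter, and their direction is not counted. The part of these cells in the levels of the pericyte markers was not tested.

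**Figure D5:**
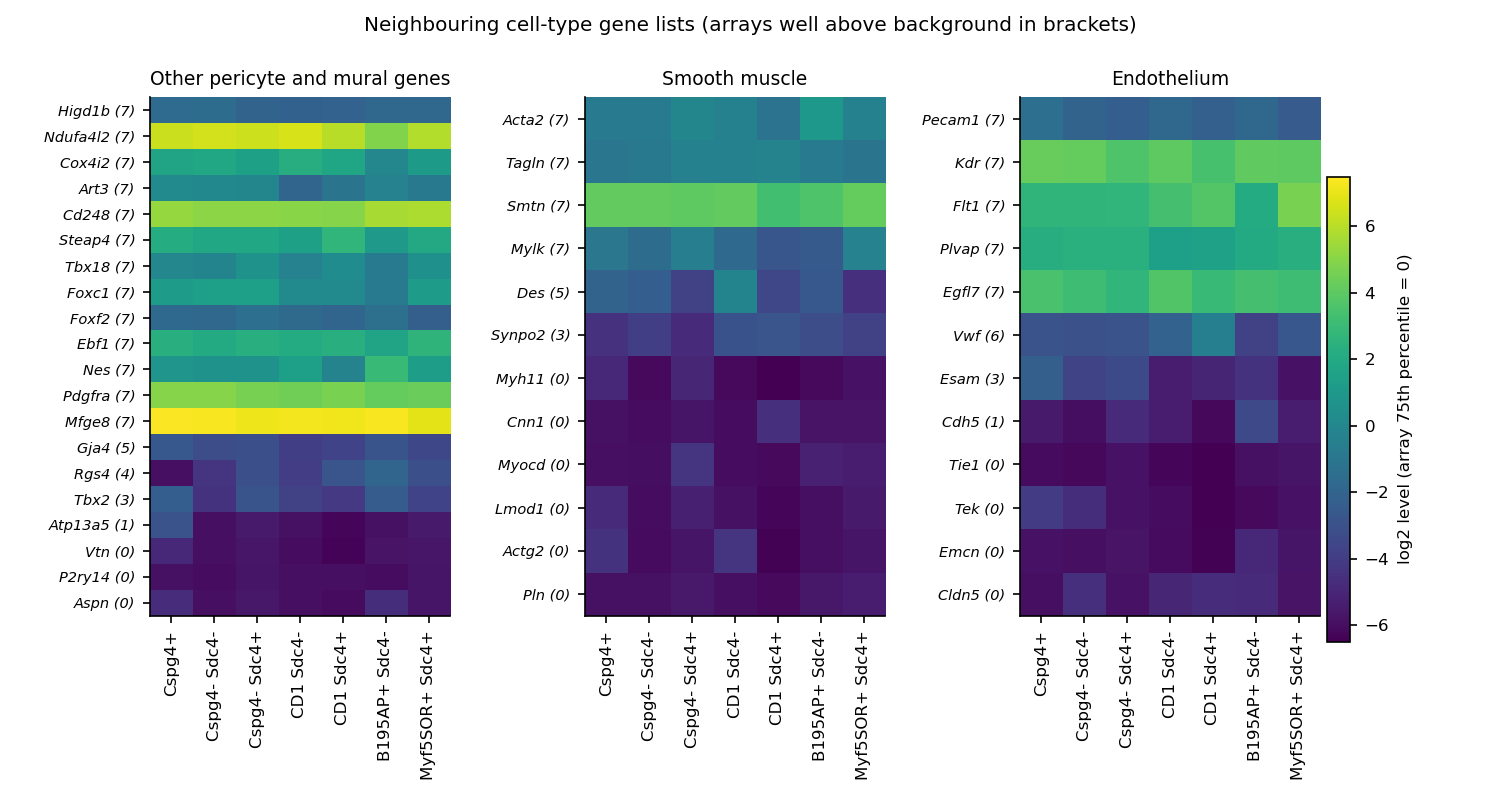
Heat map of log2 levels (array 75th percentile at 0) for 20 other pericyte and mural, 12 smooth muscle and 12 endothelial genes on the 7 arrays; the number of arrays well above background is in brackets, and colours compare arrays within a row. Pdgfra, Kdr and Acta2 were read on 7 arrays, and Myh11, Tek and Vtn on 0.

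The genes most like Cspg4 across the 7 arrays were Dlgap5 (r = 0.99), Ptprf (0.972), Slbp (0.971), Me1 (0.97) and Nudcd3 (0.968), out of 12097 genes ranked, of which 98 had an r over 0.9. Dlgap5, a spindle protein of dividing cells, read -2.99 in Myf5SOR+ Sdc4+ cells, -1.46 in Cspg4+ cells and -0.75 in B195AP+ Sdc4- cells. Slbp, which binds histone messenger RNA in S phase, ran from -0.39 in Myf5SOR+ Sdc4+ to 0.60 in B195AP+ Sdc4- cells. Between the same populations Ptprf ran from -1.14 to 1.07, Me1 from 1.01 to 2.12 and Nudcd3 from 4.47 to 5.12. A shared role of the 5 genes was not tested. Without the B195AP+ array the r of the 5 genes was 0.95 to 0.988. The B195AP+ spots of Ptprf and Nudcd3 lay in the streaked region. None of the other members was among these 5. Within the members the highest r with Cspg4 was 0.61, for Angpt2, and it was 0.19 without B195AP+. These correlations describe 7 arrays that share a slide and carry no test.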

How the data were processed

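The deposited scanner files hold fluorescence intensity per spot in 1 green channel, from Feature Extraction 11.5.1.1 with probe positions in mm9, per the file headers: background subtracted, detrended and not normalized between arrays. The labels name biotin. A deposited table of log2 values was used as an alternative. The submitters' processing notes name lumi without a version, column medians are 5.15 to 5.17, and its centring is unknown.

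Control spots were dropped and spots marked as outliers set to missing. Each gene took the probe of highest mean among those well above background on at least 3 arrays. limma 3.58.1 in R 4.3.3 was fitted to 19700 genes with Benjamini-Hochberg adjustment, using 4 group means for Cspg4 (3 residual degrees of freedom) and 3 for Sdc4 (4). The number of arrays limits the precision. With no replicate arrays, p-values reflect how far arrays of unlike line or Sdc4 label vary.

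Beyond the members, text names up to 4 genes per list by size of the Cspg4 difference and the 5 most like Cspg4; genes named for being below background, and others with values given for their role, fall outside that rule and were chosen after values were seen. Members, lists and most alternatives were chosen with earlier results of these data known. Left out as streaked in 1 alternative were rows up to 200 and columns up to 130 of the B195AP+ array.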

Additional observations from a re-analysis of the deposited data

How the results depend on the processing

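Up to 18 settings per result were tried besides the reported one, and a 19th, without Mcam, for the medians. No member passed limma in any of them (lowest adjusted p = 0.196). Centring arrays on their median moved the median of all genes by -0.76 for Cspg4+ minus Cspg4-: the member median became -0.73, Cspg4 -0.11, Pdgfrb -0.63, Notch3 -0.68 and Angpt1 -0.70. With normexp correction Angpt1 was -0.03. Without a filter on dim probes 966 genes passed for Cspg4+ (959 higher), 944 of them well above background on under 3 arrays and 0 of them members. For Sdc4+ minus Sdc4-, the line as a random block (consensus correlation 0.577) gave 3 genes past the threshold, Anpep 0.02 and Abcc9 -0.16. The line as a fixed block gave Anpep 0.11, Abcc9 -0.89 and Angpt2 0.28, and without the streaked region Anpep was 0.09. Causes were not tested.

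With single arrays left out, a lone array on a side being assumed to vary like the others, differences for Cspg4+ ran from 0.49 to 0.80 for Cspg4, -0.11 to 0.38 for Pdgfrb, -0.18 to -0.14 for Mcam, -0.32 to -0.17 for Anpep, -0.09 to 0.08 for Abcc9, -0.01 to 0.17 for Notch3, -0.08 to 0.20 for Angpt1 and -0.54 to -0.07 for Angpt2. For Sdc4+ they ran from -1.31 to -0.43 for Cspg4, 0.05 to 0.32 for Pdgfrb, 0.03 to 0.24 for Mcam, -0.36 to 0.09 for Anpep, -0.48 to 1.44 for Abcc9, 0.76 to 2.36 for Notch3, 0.12 to 0.87 for Angpt1 and -0.89 to 0.05 for Angpt2. The count of called genes was 0 each time. Replicate numbers paired nothing, since each population had 1 array; the Cspg4- and CD1 populations were paired only through their line, in the line blocks above. Signal over background limits Rgs5, Kcnj8 and Abcc9.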
